A study of Mus musculus with 12 samples.

Results

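The genes described here encode the proteins of the cytosolic ribosome, measured by RNA sequencing in the dorsal hippocampus of 12 wild-type mice. A gene was a member if its symbol was Rpl or Rps followed by a number, with at most a letter a, x, y or l and a further digit, or was Rplp0, Rplp1, Rplp2 or Rpsa, and if its mean raw count over the 12 mice was at least 10. The symbol rule found 85 of the 24985 genes listed, and 78 of them reached the mean count, 46 of the large subunit and 32 of the small subunit. The 7 that did not were Rpl10l and Rpl26 with no count in any mouse, Rpl39l with a mean count of 0.92, Rpl30 with 3.33, Rpl3l with 3.92, Rps27 with 6.58 and Rpl34 with 9.5. Just inside the limit stood Rps29 with a mean count of 38.2, and the highest was Rpl4 with 7334.5.

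Ribosomes translate messenger RNA into protein, and each is built from ribosomal RNA and a set of proteins that is nearly the same in every cell; the small subunit reads the codons and the large subunit joins the amino acids. Most genes for these proteins are expressed together, and their messages carry a run of pyrimidines at the 5′ end, the terminal oligopyrimidine tract, through which mTOR signalling controls their translation. In neurons some of these messages are also carried into dendrites and axons, where proteins are made near synapses. Mammalian genomes hold many retrotransposed copies of these short messages, called processed pseudogenes.

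All mice were C57Bl6/J wild types, 6 months old at injection and labelled male, and RNA was taken 6 months after a single injection into the right dorsal hippocampus. The 4 groups of 3 mice received phosphate-buffered saline (PBS) or 1 µg of AD tau, the sarkosyl-insoluble tau extracted from the frontal cortex of people with Alzheimer's disease (AD), and ate a control diet or chow with 5% sodium acetate by weight. They are named below by injection and diet, as PBS or tau and control or acetate; the seeded tau was human protein and no tau transgene was present, and every mouse had been fear-conditioned and tested for remote recall before tissue was taken. Polyadenylated RNA was selected from 300 ng of total RNA, and the values below are counts of reads per gene or CPM, each gene's count scaled to a common library total, after TMM scaling, a correction of each library's total. Because the tissue was bulk, fewer cells of a type and less RNA per cell cannot be told apart.

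Library totals ran from 12983233 to 20218340 counts. The female-expressed transcript Xist had 13583 to 25991 counts in every mouse and the 8 Y-linked genes listed had 0 counts in all, which goes against the label male in each group alike. The study's methods assign males to bulk RNA sequencing and females to behavior, while these mice are described above as fear-conditioned. Markers of hippocampal subfields and glia differed between groups: summed CA1 markers were 457 to 594 CPM in PBS control and 721 to 951 CPM in PBS acetate, summed CA3 markers 432 to 522 against 221 to 372 CPM, and summed myelin markers 7064 to 9108 against 4430 to 6098 CPM. In edgeR 4 of 6 CA1 markers were higher and 4 of 6 CA3 and 2 of 8 myelin markers lower in that comparison at an adjusted p below 0.1. Of all genes 3.99% were called higher and 4.85% lower there. Also called were 2 of 4 excitatory neuron markers and 1 of 5 choroid plexus markers, all lower. Of 5 astrocyte markers 2 were higher and 1 lower. In tau control mice summed CA1 markers were 611.7 to 772.4 CPM and summed CA3 markers 328.5 to 417.5 CPM, also without overlap with PBS control mice. With tau on the control diet edgeR had 3 CA1 markers higher and 1 CA3 marker lower at an unadjusted p below 0.05. None of them was called at an adjusted p below 0.1. Summed myelin markers were 4684 to 5662 CPM in tau control and 5346 to 8598 CPM in tau acetate mice. All 8 had negative log2 fold changes with tau on the control diet, at a median of -0.62, and positive ones with acetate in tau-injected mice, at a median of 0.53; edgeR called 0 of 8 in both comparisons and in the interaction at that threshold, with 8, 7 and 8 at an unadjusted p below 0.05, and DESeq2 called 1, 0 and 8. Of the 5 blood markers, the 4 haemoglobin genes had no count in any mouse, and Alas2 had 28 to 80 counts. Whether reads of the haemoglobin genes could be counted was not tested, so these rows do not show how much blood was present. The part of these shifts in the results on ribosomal protein genes was not tested.

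A read that matches several places in the genome equally well is left out by the default counting mode of HTSeq, so the copies of each gene bear on its count. The coding sequence of each gene was cut into every 50-base window and searched on both strands in all other annotated transcripts (GENCODE M21, GRCm38). The starts of 4 coding sequences are shown, each beside an annotated copy, because they run from genes with a perfect copy to a gene with several differences. Rps27 lies on chromosome 3 from 90212522 to 90213651 on the minus strand, and its copy Rps27rt on chromosome 9 from 114982366 to 114982739, minus strand. Rpl13 lies on chromosome 8 from 123102350 to 123105244, plus strand, and its processed pseudogene Gm12918 on chromosome 4 from 10848420 to 10849055, plus strand. Rps26 lies on chromosome 10 from 128624534 to 128626747, minus strand, and Rps26-ps1 on chromosome 8 from 107439131 to 107439579, minus strand. Rps15 lies on chromosome 10 from 80292453 to 80294114, plus strand, and Rps15-ps2 on chromosome 6 from 58017506 to 58017943, plus strand. Each line gives coding bases 1 to 120 of the spliced message, or the bases of the copy that align to them, and capitals mark the bases at which gene and copy differ.
Rps27: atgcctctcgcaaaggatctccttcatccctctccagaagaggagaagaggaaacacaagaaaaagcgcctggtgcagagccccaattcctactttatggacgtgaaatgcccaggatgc
Rps27rt: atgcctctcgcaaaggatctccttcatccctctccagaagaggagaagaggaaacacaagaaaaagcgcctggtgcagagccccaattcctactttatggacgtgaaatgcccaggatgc
Rpl13: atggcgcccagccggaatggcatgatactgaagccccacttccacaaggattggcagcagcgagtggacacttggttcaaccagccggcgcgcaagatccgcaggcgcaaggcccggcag
Gm12918: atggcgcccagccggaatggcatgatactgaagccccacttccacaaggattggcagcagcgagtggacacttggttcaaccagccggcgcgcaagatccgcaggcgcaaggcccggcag
Rps26: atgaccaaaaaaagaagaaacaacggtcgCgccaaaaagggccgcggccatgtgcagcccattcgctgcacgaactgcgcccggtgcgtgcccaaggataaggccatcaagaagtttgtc
Rps26-ps1: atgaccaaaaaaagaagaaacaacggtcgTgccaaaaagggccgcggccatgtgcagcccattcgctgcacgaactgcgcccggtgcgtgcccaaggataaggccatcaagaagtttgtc
Rps15: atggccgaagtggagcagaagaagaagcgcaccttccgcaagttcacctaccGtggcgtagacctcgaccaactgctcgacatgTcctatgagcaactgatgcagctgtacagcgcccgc
Rps15-ps2: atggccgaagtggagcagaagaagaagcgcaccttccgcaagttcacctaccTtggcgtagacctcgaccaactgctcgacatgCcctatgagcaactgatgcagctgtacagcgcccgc

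Over its 252 coding bases Rps27, a zinc-finger protein of the small subunit, had 0 differences from Rps27rt, and the mean count was 6.58 for Rps27 and 0 for Rps27rt. Rpl13 had 0 differences from Gm12918 over 633 bases and a mean count of 249. Rps26 differed from Rps26-ps1 at 2 of 345 bases, C30T and G270A with positions counted from the A of the start codon, and had a mean count of 603. Rps15 differed from Rps15-ps2 at 10 of 435 bases, G53T and T85C among those shown, and had a mean count of 2635.

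Copies were the rule among the 78 members, and 77 of them shared a window with an annotated pseudogene. In 28 members no coding window was free of an exact copy, among them Rpl10, Rpl11, Rps6 and Rps13; in 27 members up to 20% of windows were free, in 8 members 20% to 50%, and in 15 members more than 50%. Among the more distinct members were Rps3, which also acts in DNA repair, with 91.9% of windows free, Rpl8 with 91.3%, Rps4l with 82% and Rpl4 with 79.7%. The median level was higher in each further class, from 22.2 CPM per kilobase of coding sequence in the members with no free window to 70.6, 117 and 239 CPM per kilobase in the others. Over the 78 genes Spearman's rho between level per coding kilobase and percent of free windows was 0.692, and 0.711 with 75-base windows, given as a description across genes that share the same 12 libraries. The order of levels among these genes therefore cannot be told apart from how many of their reads had a single place in the genome.

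**Figure D1:**
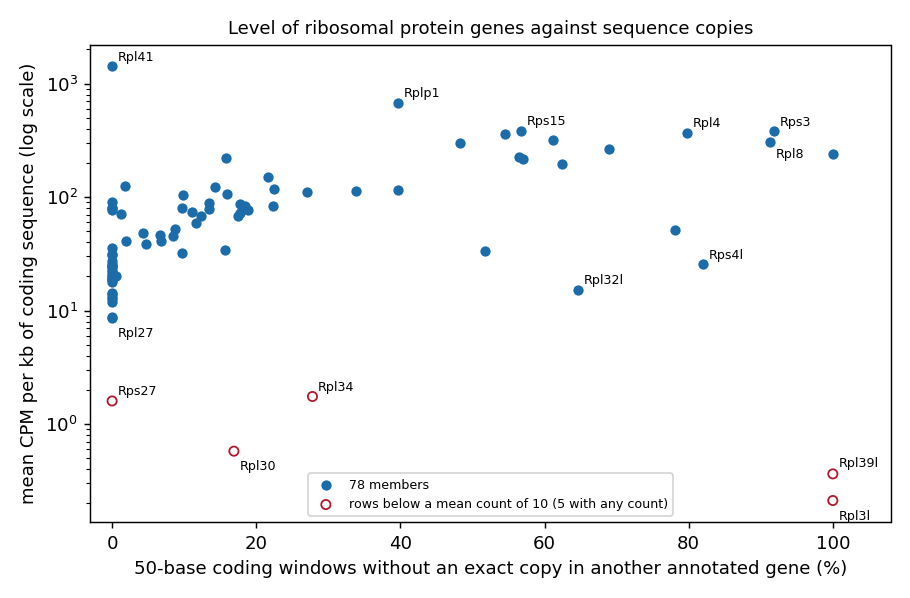
Mean level of each gene (CPM per kilobase of coding sequence, mean of 12 mice, log scale) against the percent of its 50-base coding windows that have no exact copy in another annotated gene. Filled points are the 78 members and open circles the 5 genes below a mean count of 10 that had any count; the 28 members at 0% had a median of 22.2 and the 15 members above 50% a median of 239 CPM per kilobase.

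The relation had exceptions on both sides. Rpl41, the smallest ribosomal protein, had no free coding window and yet the highest level, 1418 CPM per coding kilobase, and its coding sequence is so short that most of its annotated message is untranslated. Rps4l and Rpl32l, both annotated as processed pseudogenes in GENCODE M21, had 82% and 64.6% of windows free and levels of 25.6 and 15.2 CPM per coding kilobase. Rpl26 had 12.7% of windows free and Rpl30 16.9%, but Rpl26 had no count, which allows a level of up to 0.148 to 0.231 CPM per mouse at 3 counts a library, and Rpl30 had a mean of 0.199 CPM. The tissue-restricted relatives Rpl3l and Rpl39l, which are known from muscle and testis, had 100% of windows free and means of 0.259 and 0.0557 CPM. Floors and intervals cover counting error only.

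Of 215 copies listed, up to 3 for each member, 12 that the symbol rule did not find had a row of their own in the count table and 10 reached a mean count of 10. Rpl32 and Rpl32l, listed as copies of each other, had rows as members and are not among these 12. Among the 12, the copy was counted more often than the gene for Rpl14 and Rpl37. Rpl14 had 602 to 1068 counts per mouse, and Rpl14-ps1, which shares 77.7% of its windows, 1493 to 2461. Rpl37 had 305 to 502 counts per mouse, and Rpl37rt, which shares 82.2%, 1237 to 2331. Which locus those reads came from was not tested. There were 18 members that overlap an exon of a gene on the opposite strand; counting used the reverse strand, but the sample notes and the study's methods name different library kits, so reads of such pairs may not be told apart.

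Per kilobase of annotated exons, the 4 highest members were Rplp1 with 463 CPM, Rps15 with 264, Rpl4 with 231 and Rpl8 with 173. The SDs over the 12 mice, 29.0 for Rplp1 and 19.4 for Rps15, were smaller than the gaps between Rplp1, Rps15 and Rpl4. Per kilobase of the longest coding transcript, however, Rpl4 stood above Rps15, at 301 and 290 CPM. Per coding kilobase Rps15 stood at 382, Rps3 at 379 and Rpl4 at 368 CPM, below Rpl41 and Rplp1. The order of Rps15 and Rpl4 thus rests on the length used. Per kilobase of exons the 3 lowest were Rpl12 with 2.85 CPM, Rpl27 with 2.29 and Rps13 with 2.14, and all 3 had no free coding window. The stalk proteins, which recruit elongation factors to the ribosome, stood at 66.4 CPM per kilobase for Rplp0, 18.8 for Rplp2 and 463 for Rplp1. Per coding kilobase Rplp0 and Rplp2 were nearly level, at 116 and 113 CPM, with Rplp1 at 675, so the gap between Rplp0 and Rplp2 rests on the length used. Rps6, the small-subunit protein phosphorylated by S6 kinase downstream of mTOR, stood at 8.38 CPM per kilobase and also had no free window.

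Paralog pairs were compared per coding kilobase. Rpl22 stood at 263 CPM per kilobase and its relative Rpl22l1 at 67.8, but 69% of windows were free in Rpl22 and 17.4% in Rpl22l1. Dividing each gene's whole count by its copy-free coding windows gave 438 and 451 CPM per kilobase. The whole count can also hold reads from outside those windows, so these are not levels over them. Per kilobase of annotated exons the pair stood at 34.75 and 12.47 CPM. Rps4x stood at 104 and Rps4l at 25.6, with 9.9% and 82% of windows free. Rpl7 stood at 117 and Rpl7l1 at 51.2, with 22.5% and 78.1% free. Rps27l, a p53-responsive relative of Rps27 with 51.7% of windows free, stood at 33.5 CPM per kilobase, above Rps27 at 1.60, which had no free window. Rpl10 stood at 14.0 CPM per kilobase, Rpl39 at 88.0 and Rpl3 at 48.4, while their relatives Rpl10l, Rpl39l and Rpl3l stood at 0, 0.364 and 0.212. Free windows made up 0%, 13.5% and 4.3% in the first 3 and 87.5%, 100% and 100% in the relatives.

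The pyrimidine start was read from RefSeq gene starts on GRCm38.p6, which were at hand for 58 of the 78 members. A C at the annotated start followed by 4 bases that were each C or T, on the transcribed strand only, was present in 13 of the 58 members (22.4%), in 813 of 27025 genes (3.01%) and in 0 of 69 mitochondrial ribosomal protein genes. Allowing the C to lie within 3 bases of the start gave 24 of 58 members (41.4%), 13.5% of all genes and 9 of 69 mitochondrial ribosomal protein genes. A gene with several RefSeq starts was counted if any of them had the tract. The starts below show the tract in members of both subunits, and that of Rps15 shows an annotated start without it; each has 10 bases before and 20 from the start on, with the uninterrupted pyrimidine run in capitals. Rps6 is read from chr4:86857348-86857377 on the minus strand, Rpl15 from chr14:18270967-18270996 on the minus strand, Rpl38 from chr11:114668570-114668599 on the plus strand, Rplp2 from chr7:141447641-141447670 on the plus strand, Rps18 from chr17:33955646-33955675 on the minus strand and Rps15 from chr10:80292421-80292450 on the plus strand.
Rps6 start: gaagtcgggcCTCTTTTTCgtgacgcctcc
Rpl15 start: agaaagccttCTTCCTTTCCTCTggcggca
Rpl38 start: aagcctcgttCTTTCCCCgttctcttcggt
Rplp2 start: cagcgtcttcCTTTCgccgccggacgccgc
Rps18 start: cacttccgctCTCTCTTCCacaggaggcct
Rps15 start: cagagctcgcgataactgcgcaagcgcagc

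The 13 members with the tract at an annotated start were Rpl14, Rpl15, Rpl28, Rpl32l, Rpl35, Rpl35a, Rpl38, Rplp2, Rps10, Rps15a, Rps18, Rps21 and Rps6. Rpl35a and Rps21 also had RefSeq starts without it. A start without it says only that these letters are not at the position RefSeq gives.

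The 78 genes together took less than 1% of all counts. In PBS control mice they took 0.403%, 0.412% and 0.449% of counts, in PBS acetate mice 0.441%, 0.437% and 0.452%, in tau control mice 0.442%, 0.424% and 0.384%, and in tau acetate mice 0.431%, 0.458% and 0.444%; the 95% Wilson intervals reach at most 0.00349 percentage points to either side and cover counting error only. The group means were 0.421% ± 0.0244 (SD, n = 3) for PBS control, 0.444% ± 0.0075 for PBS acetate, 0.416% ± 0.0295 for tau control and 0.445% ± 0.0133 for tau acetate. The lowest mouse was in the tau control group and the highest in the tau acetate group, and on either injection the ranges of the diets overlapped.

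**Figure D2:**
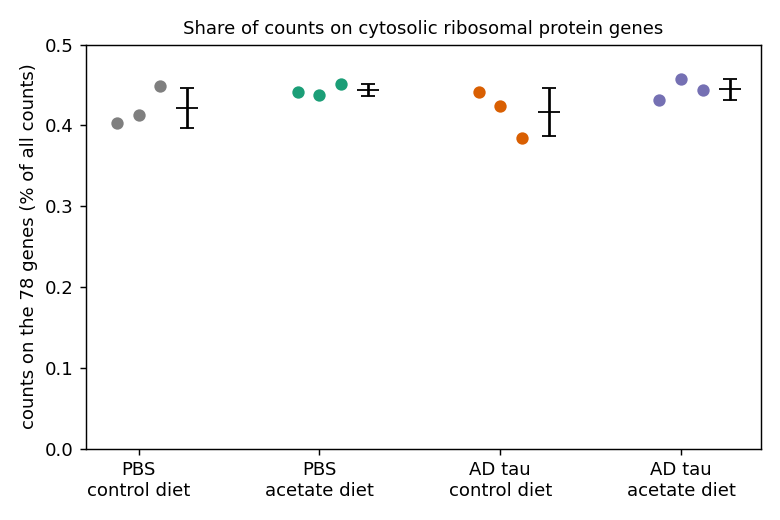
Percent of each mouse's counts that fell on the 78 ribosomal protein genes, with the mean and SD of each group of 3 mice as a bar beside the points. The shares lie between 0.384% and 0.458%, and every pair of groups overlaps.

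The members moved together from mouse to mouse within groups. In tau control mouse 3, 69 of the 78 genes were below their own mean over the 12 mice, in PBS control mouse 3 64 were above it, and in PBS acetate mouse 3 67 were above it. Expressed as the mean over members of log2 CPM less each gene's mean, tau control mouse 3 stood at -0.13, the other tau control mice at 0.05 and 0.01, PBS control mice at -0.07, -0.06 and 0.08, and the largest group mean in either direction was 0.03. After group means were removed, the correlation between 2 members over the 12 mice averaged 0.345 and was above 0 in 83.4% of pairs. The average over all genes tested was 0.001, but library scaling holds that average near 0. No such correlation was computed for other short genes. These values describe 12 libraries that share their depth and handling. In the same mice the mean of 714 other genes with transcripts under 1000 bases stood at -0.10 in tau control mouse 3 and 0.07 in PBS control mouse 3, and that of the mitochondrial ribosomal protein genes at -0.11 and 0.08. When trends with GC content and length over all genes were removed from each library, tau control mouse 3 stood at -0.06 and the average correlation of members was 0.235.

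**Figure D3:**
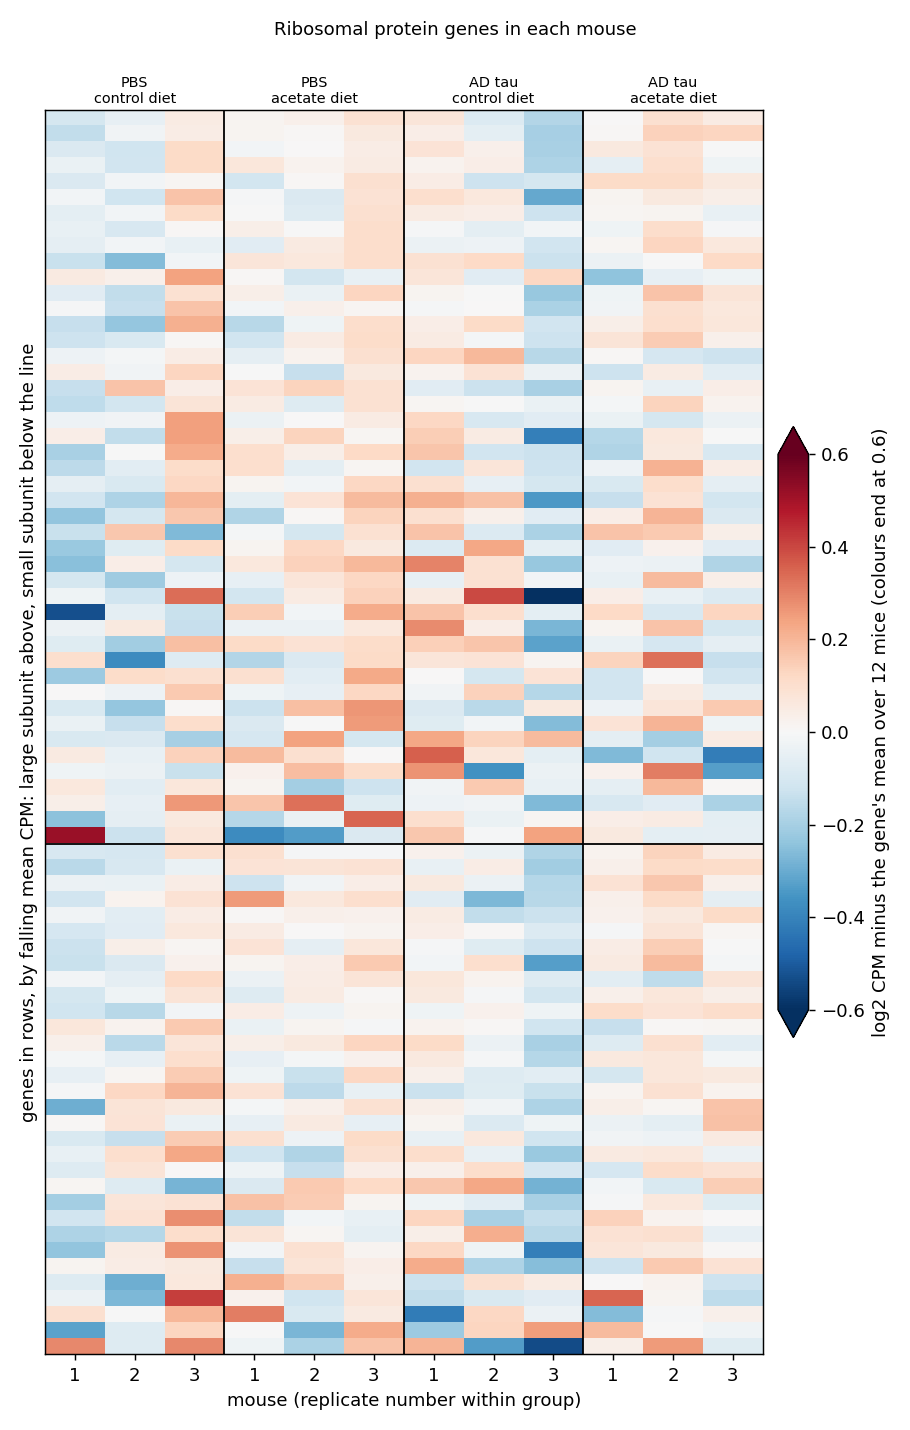
Log2 (CPM + 0.1) of each of the 78 genes (rows, by falling mean CPM) in each mouse, less that gene's mean over the 12 mice, with large-subunit genes above and small-subunit genes below the line and colours that end at 0.6 in either direction. Whole columns shade together: 69 of 78 genes lie below their mean in tau control mouse 3, and 67 lie above it in PBS acetate mouse 3.

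The first comparison asked what seeded tau changed in mice on the control diet. No ribosomal protein gene passed edgeR's quasi-likelihood test at an adjusted p below 0.1, 0 of 78 where 0.0136% of the 14742 genes tested did, and DESeq2 called 0 of the 77 members to which it gave an adjusted p, where it called 0.688% of genes. At an unadjusted p below 0.05, edgeR had 5 members (6.41%), beside 9.65% of all genes; 2 were lower, where 4.84% of all genes were, and 3 higher, where 4.81% were. The median log2 fold change was -0.02 over the members and 0.00 over all genes, and the members ranged from -0.38 for Rps29 to 0.31 for Rpl10. The median turned to 0.03 without tau control mouse 3 and to 0.04 without PBS control mouse 3, the mice in which the members were lowest and highest.

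The member of smallest p was Rps26, whose CPM was 38.0, 41.5 and 43.9 in PBS control mice and 34.8, 36.2 and 34.7 in tau control mice. The tau mice lay below the PBS mice without overlap, at a log2 fold change of -0.22 ± 0.08 (SE), with an adjusted p of 0.369 in edgeR. Rpl10, which completes the large subunit late in its assembly, was at 8.38, 8.42 and 7.79 CPM in PBS control mice and 10.5, 9.82 and 10.2 CPM in tau control mice. It too did not overlap between the groups, with a log2 fold change of 0.31 ± 0.13 and an adjusted p of 0.444 in edgeR. Groups did not overlap in 4 of the 78 members (5.13%) and in 13.5% of all genes. Rpl10a, Rps14 and Rpl3, the other members with the smallest p, had adjusted p values of 0.433, 0.456 and 0.496 in edgeR. Rpl10 and Rpl10a had at most 0.5% of coding windows free of copies, and Rpl10a overlaps an antisense gene.

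The acetate diet was then compared with the control diet in tau-injected mice. Again 0 of 78 members passed edgeR's test at an adjusted p below 0.1, where 0.0611% of all genes did, and DESeq2 called 0 of the 48 members with an adjusted p, where it called 2.19% of genes. At an unadjusted p below 0.05, edgeR had 9 members (11.5%), beside 10.9% of all genes; 8 were higher with acetate, where 5.47% of all genes were, and 1 lower, where 5.41% were. The median log2 fold change was 0.05 over the members and 0.00 over all genes; the pooled SD of the members' mean between mice was 0.07. Over the 32 small-subunit genes the median was 0.08 and over the 46 large-subunit genes 0.01, whereas with acetate in PBS-injected mice the small-subunit genes had the lower median, 0.02 beside 0.07.

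Rps14, a small-subunit protein near the decoding site, was at 129, 112 and 120 CPM in tau control mice and 137, 146 and 130 CPM in tau acetate mice. All acetate values lay above the control values, narrowly, with a log2 fold change of 0.20 ± 0.07 and an adjusted p of 0.297 in edgeR. Rpl38, a large-subunit protein tied to the translation of Hox messages, was at 8.29, 6.77 and 6.18 CPM in tau control mice and 5.35, 5.93 and 4.82 CPM in tau acetate mice. It lay lower with acetate without overlap, at a log2 fold change of -0.40 ± 0.15 and an adjusted p of 0.342 in edgeR, and it had no free coding window. Groups did not overlap in 9 of 78 members (11.5%) and in 14.4% of all genes. Rpl8, Rplp0 and Rps15 had log2 fold changes of 0.16 ± 0.06, 0.15 ± 0.06 and 0.15 ± 0.06 with adjusted p values of 0.355 to 0.365 in edgeR.

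In PBS-injected mice the acetate diet was compared with the control diet, the comparison with the most calls over all genes. Of the 78 members 1 was called by edgeR at an adjusted p below 0.1 (1.28%), Rps15, where 8.84% of the 14742 genes tested were called, and DESeq2 called 1 of 78 as well, where it called 9.29% of genes. At an unadjusted p below 0.05, edgeR had 6 members (7.69%), beside 20.8% of all genes; 2 were lower, where 10.8% of all genes were, and 4 higher, where 9.96% were. Groups did not overlap in 7 members (8.97%) beside 26.3% of all genes. The median log2 fold change was 0.05 over the members and 0.00 over all genes.

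Rps15, a protein of the small-subunit head, rose from 148, 155 and 161 CPM in PBS control mice to 175, 175 and 176 CPM in PBS acetate mice. The acetate mice were nearly identical and all above the control mice, at a log2 fold change of 0.18 ± 0.06, with an adjusted p of 0.085 in edgeR and 0.0829 in DESeq2. The call was lost, at adjusted p values of 0.14 to 0.234 in edgeR, when any 1 of the 6 mice compared was left out, and lost at 0.222 when GC and length trends were removed. In tau-injected mice, which are other animals, Rps15 was at 161, 171 and 143 CPM on the control diet and 169, 179 and 179 CPM on acetate; those ranges overlapped, and the difference between the diet effects in tau and PBS mice was -0.03 ± 0.08 on the log2 scale with an adjusted p of 0.93 in edgeR.

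Rpl3, which lines the peptidyl transferase centre, was at 53.2, 48.7 and 57.7 CPM in PBS control mice and 61.4, 61.1 and 62.8 CPM in PBS acetate mice. It did not overlap, with a log2 fold change of 0.21 ± 0.07 and an adjusted p of 0.106 in edgeR, just outside the threshold. Rpl10a was at 8.91, 12.4 and 11.7 CPM in PBS control mice and 14.27, 12.74 and 15.01 CPM in PBS acetate mice, with a log2 fold change of 0.36 ± 0.13 (edgeR, adjusted p = 0.111) that was 0.22 without the lowest control mouse, and 0.45 with an adjusted p of 0.0859 without the highest. Rpl27 was at 5.01, 3.17 and 3.66 CPM on the control diet and 2.65, 2.73 and 3.26 CPM on acetate; these ranges overlapped, and the log2 fold change was -0.47 ± 0.20 with an adjusted p of 0.194 in edgeR. The fifth, Rps14, had a log2 fold change of 0.15 ± 0.07 and an adjusted p of 0.232 in edgeR.

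**Figure D4:**
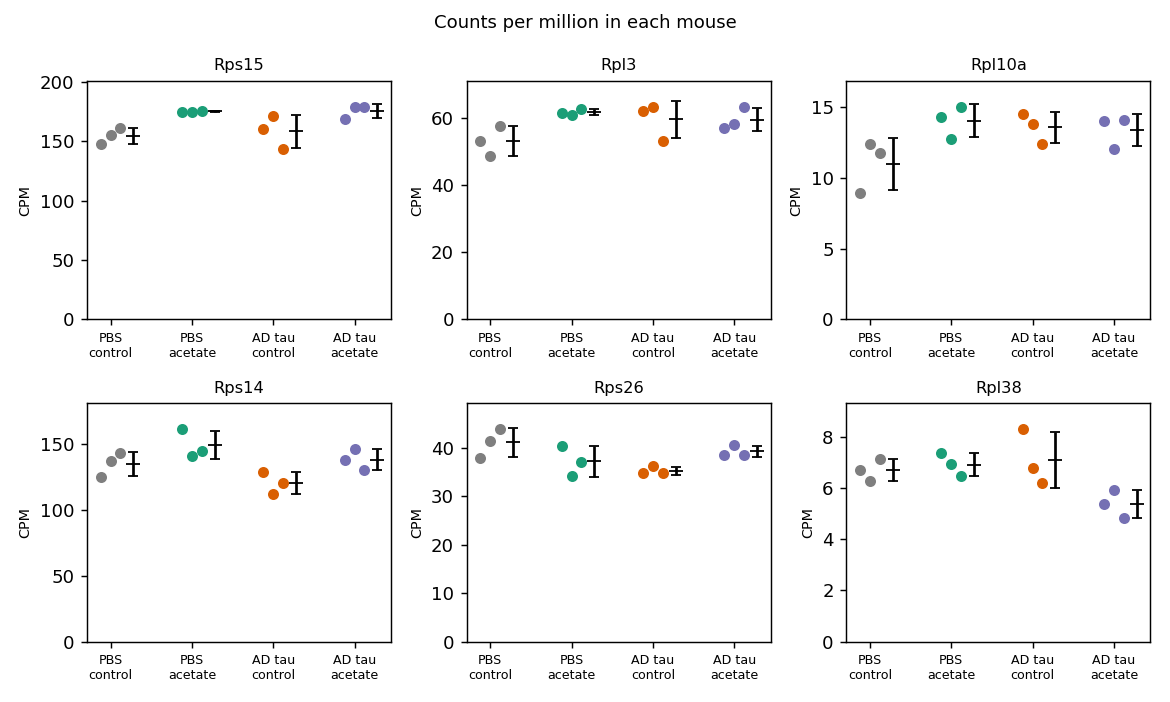
CPM in each mouse of 6 members with the smallest p in some comparison, with the mean and SD of each group of 3 mice as a bar beside the points and axes that start at 0. Rps15 is at 148 to 161 CPM in PBS control and 175 to 176 CPM in PBS acetate mice, and Rpl38 at 4.82 to 5.93 CPM in tau acetate mice.

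Tau was also compared with PBS in mice on the acetate diet. Here 0 of 78 members passed edgeR's test at an adjusted p below 0.1, where 0.136% of all genes did, and DESeq2 called 0 of 78, where it called 0.674% of genes. At an unadjusted p below 0.05, edgeR had 1 member (1.28%), beside 10.3% of all genes, and groups did not overlap in 8 members (10.3%) beside 16.2% of all genes. That member was Rpl38, at 7.36, 6.91 and 6.45 CPM in PBS acetate mice and 5.35, 5.93 and 4.82 CPM in tau acetate mice, with a log2 fold change of -0.36 ± 0.15 and an adjusted p of 0.404 in edgeR; the tau acetate mice are the same as in the diet comparison above. Rpl13 stood at -0.21 ± 0.12 on the log2 scale, with an adjusted p of 0.537 in edgeR. The median over the members was 0.01 on the log2 scale.

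A difference between the diet effect in tau-injected and in PBS-injected mice, the interaction, was called in 0 of 78 members by edgeR and by DESeq2, where edgeR called 1.56% and DESeq2 2.8% of all genes. At an unadjusted p below 0.05, edgeR had 5 members (6.41%), beside 13% of all genes. These were Rps26 with 0.30 ± 0.11 on the log2 scale, Rpl13 with -0.39 ± 0.17, Rpl10 with -0.41 ± 0.18, Rpl10a with -0.38 ± 0.18 and Rpl38 with -0.44 ± 0.21, at adjusted p values of 0.223 to 0.38 in edgeR. Rpl13, Rpl10 and Rpl38 had no free coding window and Rpl10a 0.5%.

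**Figure D5:**
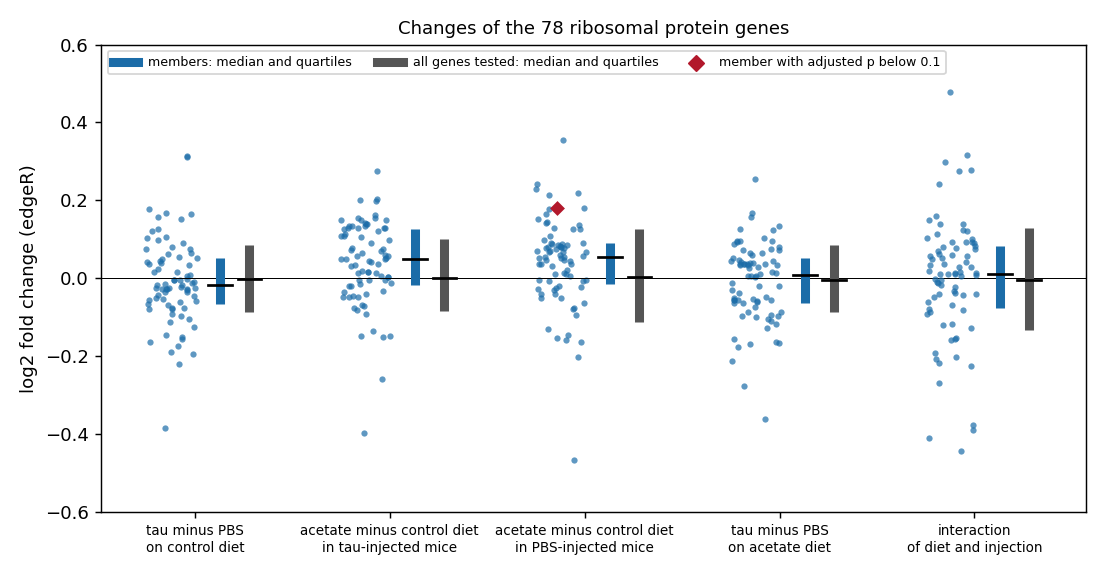
Log2 fold change of each of the 78 genes (points, spread sideways for visibility) in the 4 comparisons and the interaction, with the median and quartiles of the members (blue) and of all 14742 genes tested (grey); the red diamond is Rps15, the member with an adjusted p below 0.1 in edgeR. No member reached 0.5 in either direction, and the members' medians lie between -0.02 and 0.05.

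How small a change could have been missed follows from the intervals. The 95% interval of the log2 fold change lay within 0.5 in either direction for 71, 73, 72 and 73 of the 78 members in the comparisons in the order given, beside 70.2%, 70.9%, 67.4% and 71.5% of all genes, and for 53 in the interaction. The distance from the estimate to either end of the interval had a median of 0.19 to 0.20 over the members in the 4 comparisons and 0.27 in the interaction. The sparsest genes were the widest, and Rps29 lay outside this bound in every comparison: its log2 fold change was -0.38 ± 0.25 with tau on the control diet. Among the 15 members with at least 50% of coding windows free, the median log2 fold changes were -0.02, 0.11, 0.05 and 0.01 in the same order, and all 15 intervals lay within the bound.

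The stalk proteins and Rps6 gave no call in any comparison. Rplp0 had log2 fold changes from -0.03 to 0.15 in the 4 comparisons, Rplp1 from 0.00 to 0.07, Rplp2 from -0.08 to 0.11 and Rps6 from -0.15 to 0.12. Rplp1 averaged 226 ± 20.5 CPM in PBS control, 232 ± 5.01 in PBS acetate, 227 ± 22.7 in tau control and 238 ± 7.59 in tau acetate mice (SD, n = 3).

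Other genes of the translation machinery gave few calls, most of them with acetate in PBS-injected mice, where edgeR called 4.85% of all genes lower and 3.99% higher at a median log2 fold change of 0.00. The ribosomal protein genes Fau, Rack1 and Rpl36al, which lie outside the symbol rule, and 16 elongation factors and other genes with pyrimidine starts gave 0 calls in any comparison with edgeR and with DESeq2; at an unadjusted p below 0.05 the first list had 0 and the second at most 2 in a comparison. With edgeR, of 35 initiation factors tested 3 were lower with acetate in PBS-injected mice, Eif1b, Eif2s1 and Eif4g2, and 0 higher, at a median of -0.04. Eif4g2, which supports cap-independent initiation, fell from 759, 743 and 781 CPM to 646, 649 and 675 CPM, without overlap, at a log2 fold change of -0.21 ± 0.05 (edgeR, adjusted p = 0.0282). Of 40 ribosome biogenesis genes, at a median of 0.05, 1 rose in the same comparison, Nop56, a core protein of box C/D small nucleolar ribonucleoproteins, from 58.4, 58.8 and 57.6 CPM to 73.7, 68.0 and 69.3 CPM, at a log2 fold change of 0.27 ± 0.06 (edgeR, adjusted p = 0.033). Of 24 mTOR and pyrimidine-tract regulators, at a median of 0.00, 2 fell, Deptor and Mycn; Deptor, a subunit that inhibits mTOR, went from 15.02, 18.07 and 15.37 CPM to 13.6, 10.4 and 10.7 CPM, at a log2 fold change of -0.48 ± 0.13 (edgeR, adjusted p = 0.0447). DESeq2 called 1 further initiation factor lower with acetate in tau-injected mice and 1 biogenesis gene lower with tau on acetate. Each of the 3 genes described was lost when certain single mice were left out, at adjusted p values up to 0.158 for Eif4g2, 0.134 for Nop56 and 0.226 for Deptor in edgeR.

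Of 78 mitochondrial ribosomal protein genes 2 were lower with acetate in PBS-injected mice, Mrpl51 and Mrps22, and 0 higher, at a median of -0.02, and 0 were called in the other comparisons, with at most 4 at an unadjusted p below 0.05; DESeq2 called 1, with acetate in PBS-injected mice. Mrpl51 fell from 26.7, 22.5 and 25.7 CPM to 20.5, 19.4 and 20.4 CPM, at a log2 fold change of -0.32 ± 0.08 (edgeR, adjusted p = 0.0433), with up to 0.2 when a mouse was left out. The 17 genes of RNA polymerase I, which makes the ribosomal RNA precursor, gave 1 call, the interaction of Taf1a, and 15 small nucleolar RNA host genes gave 0 calls with edgeR and with DESeq2, with at most 4 at an unadjusted p below 0.05. Those 4 had negative log2 fold changes for tau on the acetate diet, where 10.3% of all genes reached that p in either direction; the host genes' median log2 fold change was -0.15 there, with 14 of 15 below 0, and 0.12 with acetate in PBS-injected mice.

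The genes outside the rule whose log2 CPM followed the mean of the members most closely over the 12 mice, of 14663 ranked by Pearson's correlation, were Txn2 with 0.932, Zfp830 with 0.922, Ubald1 with 0.903, Phax with 0.902 and Higd2a with 0.894. These correlations rest on the same libraries, whose members' mean also moved with that of other short transcripts.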

How the data were processed

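Raw counts of reads per gene were deposited by the authors as a single table with 1 column for each of 12 mice. Per the labels and the study's methods, reads were aligned with STAR 2.5.2a to GRCm38 and counted with HTSeq 0.9.1 on the reverse strand, SAMtools 1.1 also being named in the submitters' processing notes; up to 20 alignments a read were kept by the aligner. The annotation used for counting and the read length were not given in the sources used here. No column was left unused. Groups came from the sample titles and characteristics, and nothing ties equal replicate numbers to shared litters; whether each sample was a separate animal follows from those labels.

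Genes were kept by filterByExpr (minimum count 10, minimum total 15), which left 14742. The robust quasi-likelihood F test of edgeR 4.0.16 (R 4.3.3) was fitted with TMM scaling and 1 mean per group over all 12 mice, with 8 residual degrees of freedom, with Benjamini-Hochberg adjustment across every tested gene and a threshold of 0.1. The F statistic gave the standard errors, and the fitted degrees of freedom the 95% intervals. DESeq2 1.42.0 was the alternative, and an adjusted p it does not give was left out. Mean log2 values used a prior count of 2. The common biological coefficient of variation was 7.25%, and its median over the members 6.82%, so spread between mice limited precision for abundant genes and counting noise for sparse ones. Lengths, positions and copies came from GENCODE M21 on GRCm38, and gene starts from RefSeq on GRCm38.p6; unannotated copies were not covered. The fitting steps were tested on simulated data.

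The members and all gene lists were chosen with earlier results of these data known, so no list was tested as a whole. Genes named were the 5 members of smallest p in each comparison, the 5 highest and 3 lowest per kilobase, the stalk proteins, Rps6 and paralog pairs, the genes nearest the count limit, the smallest-p gene of each pathway list with a call, and the 5 genes most correlated with the members' mean; genes shown for their copies or starts were chosen after their values were seen, and some genes that these rules select are not reported here. Alternatives were other scaling, no filter, the other tool, the compared mice alone, a threshold of 0.05, a replicate block, removal of GC and length trends, other lengths, and leaving out each mouse.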

Additional observations from a re-analysis of the deposited data

Results flagged for a closer look

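No ribosomal protein gene met a rule for a closer look; groups of 3 mice are too small for a test of single outlying samples. Genes of the comparison lists were picked out because acetate had unequal effects after tau and after PBS injection by the edgeR test of that difference. Nop56 differed by -0.37 ± 0.09 on the log2 scale (adjusted p = 0.0755), with -0.10 in tau-injected and 0.27 in PBS-injected mice. Taf1a, a subunit of the RNA polymerase I selectivity factor, differed by -0.62 ± 0.16 (edgeR, adjusted p = 0.0885), with -0.31 and 0.31. Among markers, the astrocyte water channel Aqp4 differed by 0.35 ± 0.09 (edgeR, adjusted p = 0.0755), with 0.15 and -0.20. The 5 astrocyte markers did not share this direction: 3 lay above 0 and 2 below. At an unadjusted p below 0.05 in edgeR, 2 were higher and 2 lower. The choroid plexus marker Folr1 differed by 2.92 ± 0.71 (edgeR, adjusted p = 0.0755), with 1.19 and -1.73, at 1.83, 0.726 and 4.24 CPM in tau acetate mice and 0.938, 0.995 and 0.992 CPM in tau control mice. It was sparse, with 34, 18 and 20 counts in PBS control and 8, 10 and 6 in PBS acetate mice. Choroid plexus markers were high in 1 tau acetate mouse: their summed levels in that group were 79.3, 80.2 and 477 CPM. Ttr had 807, 606 and 6211 counts in tau acetate mice 1, 2 and 3. The calls of these 4 genes were all lost at a threshold of 0.05. Of the 12 edgeR fits that each left out 1 mouse, 6 kept the call of Aqp4, 3 that of Folr1, 2 that of Nop56 and 0 that of Taf1a, with adjusted p values up to 0.223, 0.2, 0.164 and 0.246.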

How the results depend on the processing

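The count of ribosomal protein genes called stayed at 0 in tau against PBS on either diet, in acetate against control diet in tau-injected mice and in the interaction under every alternative run. In PBS-injected mice the count of 1 became 2 with no filter and with edgeR on the compared mice alone, and 0 at a threshold of 0.05; removing GC and length trends left 1, which was then Rpl3 (adjusted p = 0.0514 in edgeR) and not Rps15. Leaving out each mouse in turn gave counts of 0 to 2 there. The members' median log2 fold changes ran from -0.05 to 0.04, 0.00 to 0.08, 0.02 to 0.11, -0.02 to 0.03 and -0.04 to 0.05 in these fits, in the order of the report, so the sign depends on single mice for tau against PBS on either diet and for the interaction. The median level per kilobase was 13.2 CPM over exons and 29.6 over the longest coding transcript. Alternatives chosen after seeing the data gave 67.8 over coding sequence and 580 for the whole count over coding windows without a copy (50 genes). Of 213 alternative values of summary results, 198 were rated the same. For medians, shares and levels this meant a shift smaller than the SD between mice, so a median near 0 could change sign. For counts of calls it meant an equal or similar count. Of 675 values for single genes, 605 kept their sign and their status as called or not called, where an adjusted p was given. A call was lost in 62 and gained in 8, and the sign changed in 0. Only genes called in the edgeR fit described above could lose a call, and most of the genes followed were not called there. The 605 values therefore do not measure how stable the calls were.

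Deviations of equal-numbered mice correlated between -0.09 and 0.14. Unequal-numbered mice were not set beside them, so these values cannot show whether equal replicate numbers mark paired mice. With the replicate block the count in PBS-injected mice was 1 of 78 and the calls over all genes 1224 against 1303. Totals without mitochondrially encoded genes could not be formed because no such rows were used here. Depth limits the sparsest members, such as Rps29.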
